A study of Chrysemys picta and Apalone spinifera with 20 samples.

Results

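Chosen by their measured levels, 150 genes were highest in stage 9 trunks in both the painted turtle *Chrysemys picta* and the softshell turtle *Apalone spinifera*, out of 12676 genes counted in both species. To select them, each read count was multiplied by 1000 and divided by the 75th percentile of its library (the scaled count), 10 was added and the log2 was taken. The score of a gene in a species is the lowest such value of the 2 stage 9 libraries minus the highest of the 8 later libraries, and the lower score of the 2 species was kept. It was above 0 for 437 genes, of which the 150 highest are described here. Since these values chose the genes, their excess at stage 9 is a description and was not tested.

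The embryos compared came from turtle farm eggs incubated at 26 °C or 31 °C. In *Chrysemys*, with temperature-dependent sex determination (TSD), these are the male-producing (MPT) and the female-producing temperature (FPT). In *Apalone*, with genotypic sex determination (GSD), temperature does not set sex, and the pooled embryos were unsexed. RNA came from the trunk at stage 9, the adrenal-kidney-gonad complex (AKG) at stage 12 or 15 and the isolated gonad at stage 19 or 22, with 1 library per species, stage and temperature from a pool of 10 (*Chrysemys*) or 5 (*Apalone*) embryos. Stage and tissue therefore cannot be told apart between trunks and AKGs or between AKGs and gonads. In such pooled tissue, fewer cells of a type and less RNA per cell cannot be told apart either.

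At the earliest of these stages, the vertebrate trunk still holds cells that divide rapidly and have not yet settled on a fate. RNA-binding proteins such as LIN28A keep embryonic cells in this state by blocking the maturation of let-7 microRNAs, while transcription factors and signals such as HOX proteins and WNTs lay out the body axis. As organs form, RNA-binding proteins such as LIN28A are shut down, and production of ribosomes and cell division slow.

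Total counts per library ran from 11610098 to 24606646 in *Chrysemys* and from 5544730 to 9501484 in *Apalone*. Reads of both species were mapped to *Chrysemys* genes, so levels were compared within a species only, and a low level in *Apalone* may also reflect lower mapping. Each value is that of 1 library, with no spread between pools known, and counting error is the only error given for it. The scaled counts are not divided by gene length and were compared between libraries, not between genes.

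In *Chrysemys* the selected genes took 3.97% of all counts at stage 9 at 26 °C and 2.99% at 31 °C, against 1.08 to 2.13% in the later libraries. The *Apalone* shares were 3.70% and 3.99% at stage 9 and 1.36 to 2.56% later. Their fall was already well under way at stage 12, where the median gene retained 58.4% of its stage 9 level in *Chrysemys* and 61.8% in *Apalone*. At stage 22 it retained 35.8% and 38.2%. The highest later library was one of stage 12 for 114 genes in *Chrysemys* and 112 in *Apalone*. Scores ran from 2.42 (a 5.34-fold gap, pseudocount included) to 0.20 (1.15-fold), with a median of 0.34 (1.27-fold), and only 19 genes scored 1 or more. The last genes inside the limit were *Cdk5rap2*, XM_005309545, XM_005299530, *Ston2* and *Cenpe* (0.21 to 0.20). The first outside were XM_005285230, *Gcn1*, *Nasp*, *Prex1* and XM_005293321 (0.20), so the limit of 150 cuts a continuous range.

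**Figure D1:**
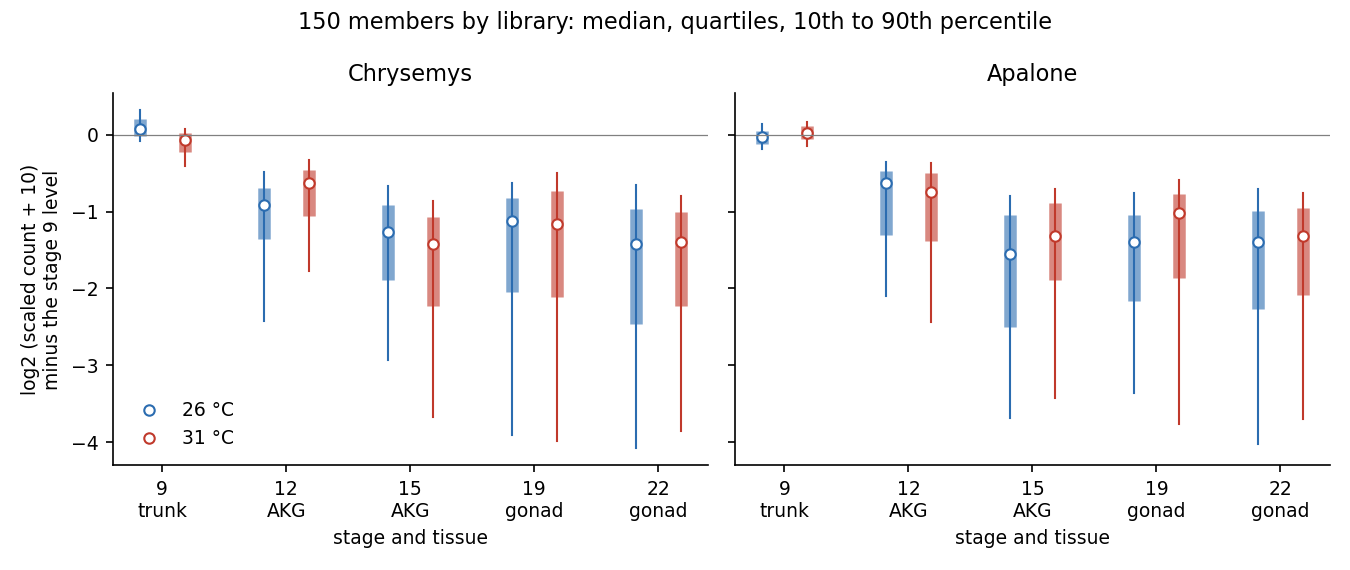
Log2 (scaled count + 10) of the 150 genes minus the level of their stage 9 mean, by stage and tissue (horizontal axis) and temperature (colour), in *Chrysemys* (left) and *Apalone* (right). Circles are medians over genes, thick bars quartiles and thin lines the 10th to 90th percentile. The drop to stage 12 and the further drop to stage 15 are seen in both species, and the *Chrysemys* libraries of stage 12 differ between temperatures.

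Of these genes, 99 carry a symbol, and 90 of them were assigned by hand, after their values were seen, to 7 roles. Counted on lists of genes by function, the early embryonic growth and pluripotency list had 7 of its 15 measured genes among those selected, ribosome biogenesis 8 of 20, mitosis 9 of 41 and DNA replication 5 of 28. Over all genes in both tables the share was 1.18%, which also covers genes without a symbol. Scores above 0 were held by 7, 12, 17 and 10 genes of these lists in the same order, and by 437 of all 12676. The median scores of the lists were -0.05, 0.13, -0.12 and -0.28, against -1.20 over all genes. Only the ribosome biogenesis list thus had a median above 0. The lists were drawn up with earlier results of these data known, so these shares are descriptions. Lists were matched by symbol, so here and below a list gene is measured only where an entry carried its symbol. The 51 selected genes without a symbol could match no list. Among the genes with a symbol, none of the lists for neurons (21 measured), limb and lateral plate (16), Notch (13), FGF (17), kidney (9), somatic gonad (11) or cartilage (9) was selected.

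Early embryonic regulators, 9 genes, stood at the top. *Lin28a*, the let-7 inhibitor, had the highest score of all. In *Chrysemys* its scaled count was 808 at 26 °C and 292 at 31 °C at stage 9, then 21.4 and 46.4 at stage 12, and it did not exceed 2.71 from stage 15 on. In *Apalone* it was 407 and 420 at stage 9, 4.03 and 4.27 at stage 12, and 0 in 5 of the 6 libraries after that, with 14.6 in the remaining one. Both species thus held *Lin28a* almost entirely in the trunk libraries. *Prtg* encodes protogenin, a cell-surface protein of the early neural tube and mesoderm in chick and mouse. Its scaled counts in *Chrysemys* trunks were 4137 at 26 °C and 1296 at 31 °C, and 10.8% of the stage 9 level was left at stage 12. In *Apalone* trunks they were 7687 and 9063, with 4.84% left at stage 12.

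*Nr6a1*, an orphan nuclear receptor that shuts off pluripotency genes in mouse embryos, gave 790 and 129 in *Chrysemys* trunks at 26 °C and 31 °C, and 33.3 and 58.1 at stage 12. *Apalone* trunks gave 879 and 1252, and the stage 12 AKGs 96.8 and 64.1. *Trim71*, a let-7 target that represses mRNAs, gave 1238 and 443 in *Chrysemys* trunks and 4486 and 4059 in *Apalone* trunks. The *Chrysemys* level was lower at stage 12, at 112 and 213, while *Apalone* held 931 and 684 there. *Sall4*, a zinc-finger factor of pluripotent cells, gave 1425 and 938 in *Chrysemys* trunks and 2888 and 2916 in *Apalone* trunks. It kept 18.7% of that level at stage 12 in *Chrysemys* and 22.5% in *Apalone*, so the later libraries were well apart from the trunks.

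The other 4 fell less steeply. At stage 12, *Igf2bp1*, which binds and stabilises mRNAs, kept 29.9% in *Chrysemys* and 49.5% in *Apalone*, and its relative *Igf2bp3* 71.2% and 62.3%. *Dnmt3b*, which sets new DNA methylation, kept 42.2% and 62.2%, and *Arid3b*, a DNA-binding factor, 49.9% and 56.6%. At stage 22 the median over the 9 regulators was 5.08% of the stage 9 level in *Chrysemys* and 9.67% in *Apalone*, against 35.8% and 38.2% over all 150 genes. Such low levels were not particular to this role. The medians were 4.48% and 3.91% for patterning factors and signals. For the heart and plasma protein genes *Ttr*, *Myl7* and *Tpm4* they were 4.51% and 1.88%.

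**Figure D2:**
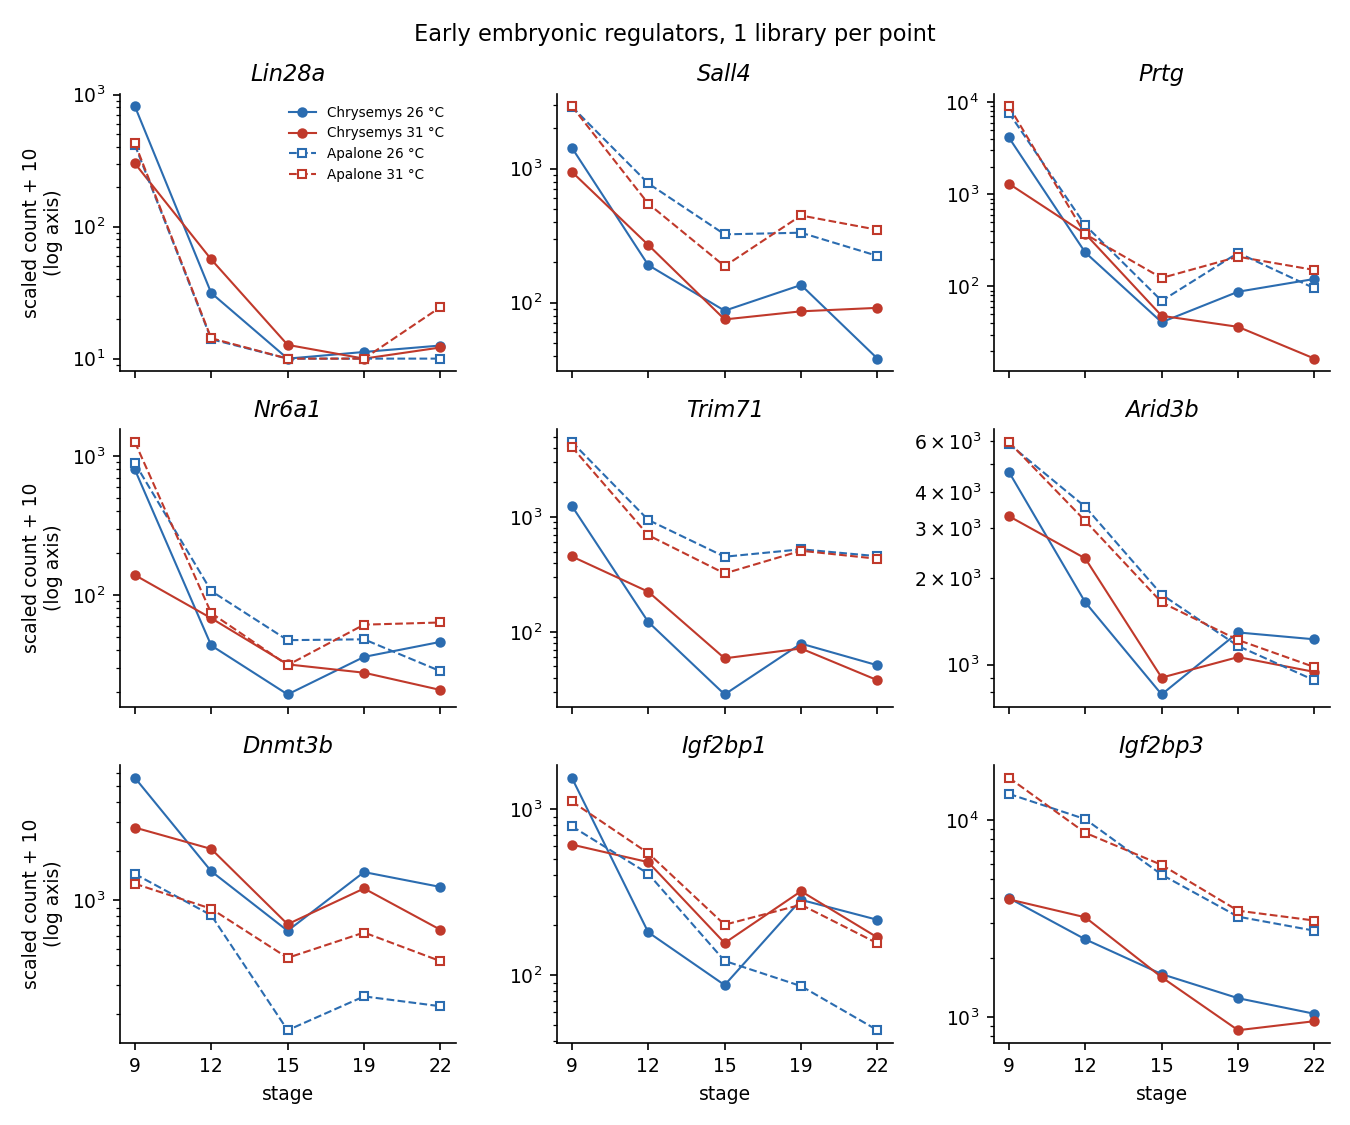
Scaled count + 10 (log axis) of the 9 early embryonic regulators by stage, 1 library per point. Solid lines and circles are *Chrysemys*, dashed lines and open squares *Apalone*, blue 26 °C and red 31 °C. At stage 9 the red *Chrysemys* point is below the blue one in all 9 panels and at stage 12 above it, while the *Apalone* pairs lie closer together.

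Patterning factors and signals numbered 18 and rested on low counts, with a median stage 9 scaled count of 181 in *Chrysemys* and 155 in *Apalone*, where the median over all selected genes was 1893 and 1559. *Wnt8a*, a Wnt ligand of the caudal embryo, had 66 and 56 raw counts in *Chrysemys* trunks at 26 °C and 31 °C, and 0 to 4 in the later libraries. *Apalone* trunks had 14 and 10, and none of the 8 later libraries had any, so that the lower trunk library was at least 1.88-fold above a floor of 3 counts per library. *Hoxb1*, a hindbrain and mesoderm Hox gene, gave scaled counts of 276 and 161 in *Chrysemys* trunks against 45.0 at most later. In *Apalone* it gave 56.1 and 25.2 against 4.27. The Hox list as a whole was not highest in trunks: its 17 measured genes had a median score of -1.05, and they summed to 4159 and 4599 in *Chrysemys* trunks against 6310 and 5747 at stage 12, and to 5561 and 5618 against 10343 and 10479 in *Apalone*.

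Markers of other body regions were among the same 18 genes. *Nkx2-5*, the cardiac homeobox gene, gave 174 and 188 in *Chrysemys* trunks and 164 and 134 in *Apalone* trunks. *Olig2*, a factor of motor neuron progenitors, gave 165 and 199 in *Chrysemys* and 173 and 147 in *Apalone*, and was the only 1 of 24 measured neural tube genes selected. *Dlx2*, *Dlx4* and *Dlx5*, homeobox genes of the branchial arches and limbs, were all included. *Dlx5* gave 344 and 331 in *Chrysemys* trunks, and 864 and 710 in *Apalone* trunks, against 179 and 177 in the highest later library. *Msgn1*, a switch of presomitic mesoderm, had only 18 and 24 raw counts in *Chrysemys* trunks and 32 and 12 in *Apalone*. Its list, segmentation and presomitic mesoderm, had 2 of 12 measured genes selected and a median score of -0.98. The list summed to 7240 and 7832 in *Chrysemys* trunks against 8771 and 9689 at stage 12, and to 14636 and 13676 against 16992 and 16927 in *Apalone*. *Foxi3*, *Evx1*, *Tfap2c*, *Sp8*, *Gdf6*, *Gli3*, *Wfikkn1* and *Trabd2a* also had this role. *Gli3*, a Hedgehog effector, gave 2107 and 1410 in *Chrysemys* trunks and 3682 and 3916 in *Apalone* trunks. It was the only 1 of 9 measured Hedgehog genes selected (median score -1.25). The same held for *Tfap2c* of 8 neural crest genes (-1.38), *Wnt8a* of 33 Wnt genes (-0.70) and *Gdf6* of 23 BMP and TGF-beta genes (-0.95).

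The genes *Ttr*, *Myl7* and *Tpm4* are known from liver or heart. *Ttr* encodes transthyretin, a plasma carrier of thyroid hormone, and had the second highest score. Its scaled count in *Chrysemys* trunks was 23909 at 26 °C and 15135 at 31 °C, then 1802 and 408 at stage 12, and 7.71 and 34.3 at stage 22. *Apalone* trunks had 6776 and 2739, and the AKGs of stage 12 had 48.4 and 8.55. *Ttr* was also present in the 26 °C *Apalone* libraries of stages 15 and 19 (321 and 671) and listed at 0 in the 31 °C libraries of these stages. The list of gut and liver genes, of which 10 of 21 were measured, *Ttr* included, had another course over the stages. Its summed scaled count in *Chrysemys* was 57955 and 33800 in trunks, 7036 and 5193 at stage 12, and 12748 and 21239 at stage 22. In *Apalone* it was 16248 and 9950 in trunks, but 85090 at 26 °C and 14170 at 31 °C at stage 15, and 100759 and 6433 at stage 19. The part of liver tissue in these levels was not tested.

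*Myl7*, the atrial myosin light chain, gave 1818 and 2608 in *Chrysemys* trunks and 1771 and 1336 in *Apalone* trunks. *Tpm4*, an actin-binding tropomyosin, gave 1045 and 1608 in *Chrysemys* and 3846 and 4034 in *Apalone*. In *Apalone* neither exceeded 171 later. In *Chrysemys* both were highest among the later libraries at stage 15 at 26 °C, with 1562 (*Myl7*) and 818 (*Tpm4*) against 271 and 73.2 at 31 °C. Of 20 measured muscle genes, *Nkx2-5* alone was selected, and the summed muscle list was 12549 and 20987 in *Chrysemys* trunks and 60297 and 63130 at stage 15. The rule fixed that the selected genes be highest in trunks, so nothing is read from this contrast.

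Genes of DNA replication, repair and mitosis numbered 17, and 8 more act on chromatin. Their excess at stage 9 was small and even, with median scores of 0.32 and 0.34. *Parp1*, a sensor of DNA breaks, gave 8362 and 8350 in *Chrysemys* trunks against 5489 in the highest later library, and 21528 and 21429 against 13468 in *Apalone*. *Clspn*, which encodes the checkpoint protein claspin, had the highest score of this role (0.68), with 1306 and 978 in *Chrysemys* and 1509 and 1933 in *Apalone*. *Kif4a* and *Kif20a* (mitotic kinesins), *Plk1* (a mitotic kinase), *Bub1b* and *Ndc80* (spindle checkpoint and kinetochore), *Incenp*, *Racgap1*, *Espl1* and *Cenpe* were the 9 genes from the mitosis list. From the DNA replication list came *Cdc6* and *Dtl*, together with *Clspn*, *Uhrf1* and *Hells*. *Uhrf1*, which maintains DNA methylation, gave 4111 and 4038 in *Chrysemys* and 6537 and 7412 in *Apalone* trunks. *Smarca5*, a chromatin remodeller, gave 7402 and 7183 in *Chrysemys* trunks against 5322, and 16178 and 19945 in *Apalone* trunks against 11968.

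Ribosome production, RNA and translation was the largest role (24 genes). Its median gene kept 68.2% of its level at stage 12 and 55.2% at stage 22 in *Chrysemys*, and 69.6% and 53.8% in *Apalone*. *Ncl*, which encodes nucleolin, gave 40790 and 40940 in *Chrysemys* trunks against 32638 in the highest later library, and 42654 and 40172 in *Apalone* trunks against 33585. The other genes from the ribosome biogenesis list were *Mybbp1a*, *Nat10*, *Wdr43*, *Nop2*, *Ddx18*, *Rrp12* and *Wdr75*, with scores of 0.28 to 0.43. Their products process ribosomal RNA in the nucleolus.

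Transport, metabolism and protein handling held 11 genes. *Slc7a5*, the transporter of large neutral amino acids, led it with a score of 0.97. *Chrysemys* trunks gave 9289 at 26 °C and 4253 at 31 °C, and *Apalone* trunks 1636 and 1735. *Slc2a12*, a glucose transporter, gave 544 and 372 in *Chrysemys* and 495 and 471 in *Apalone*. *Acat2* acts in ketone and lipid metabolism, and *Hspa8* encodes a heat shock cognate chaperone. *Chrysemys* trunks gave *Hspa8* scaled counts of 37463 and 43410, and *Apalone* trunks 49463 and 62689. Outside the 7 roles, *Fignl2*, *Greb1*, *Upk1a* and *Dok4* were also among the 30 named genes of highest score. The 51 genes without a symbol had a median score of 0.34, equal to that over all 150 genes at this precision. In the RefSeq gene order of another *Chrysemys* assembly, which placed 81 of the 150 genes, *Dlx5* and *Asns* had 2 protein-coding genes between them, and *Ccnf* and *Wfikkn1* had 4.

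The comparison of 26 °C with 31 °C asks which genes respond to incubation temperature. At each stage, the 2 libraries of a species were compared by a two-sided Fisher's exact test, with an adjusted p under 1e-10 as the threshold. This test compares 2 libraries, each from 1 pool, and not 2 temperatures. A read pair appears to add 2 counts, which lowers the p-values, so calls with each read pair counted once are also given. The power of the test also rises with counts. The selected genes had a median stage 9 scaled count of 1893 in *Chrysemys* and 1559 in *Apalone*, against 367 and 202 over all genes in both tables. The part of count level in the shares called was not tested. The selection read the lower of the stage 9 libraries and the highest of the later ones, but not which temperature gave them. Ratios below are 31 °C over 26 °C, as log2 of scaled counts plus 10.

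In *Chrysemys* trunks, 50 of the 150 genes were called lower at 31 °C and 6 higher. Among all 13698 genes tested, 10.4% were called lower and 14.8% higher. With each read pair counted once, 35 of the 150 were called lower and 3 higher, against 816 and 1350 of all genes. The median log2 ratio of the selected genes was -0.14, against 0.04 over all genes. The early embryonic regulators carried the largest differences. All 9 had lower values at 31 °C, 8 of them called, with a median of -1.34. The exception was *Igf2bp3* (4012 and 3950). This role was put together by hand after the values were seen, so its counts and medians at any stage are descriptions. *Nr6a1* and *Prtg* were placed in it without being on the early embryonic growth and pluripotency list. *Nr6a1* had a ratio of 0.16 between the libraries (exact 95% counting interval 0.13 to 0.20), *Prtg* 0.31 (0.29 to 0.34), *Trim71* 0.36 (0.31 to 0.41), *Lin28a* 0.36 (0.31 to 0.43), *Igf2bp1* 0.39 (0.35 to 0.44) and *Dnmt3b* 0.49 (0.47 to 0.52). These intervals cover counting error only, computed on read pairs, and none reached 1.

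Outside the regulators, *Slc7a5* (ratio 0.46), *Fignl2* (0.52), *Ston2* (0.54) and *Ttr* (0.63) were called lower in the same pair. Called higher were the cardiac genes *Tpm4* (log2 ratio 0.62) and *Myl7* (0.52), together with *Incenp* (0.23), *Hspa8* (0.21) and a pair of genes without a symbol. Of the 17 replication and mitosis genes, 4 were called lower and 1 higher, with a median of 0.04. Summed scaled counts of tissue lists differed in both directions between these libraries. They were higher at 31 °C for 21 neuron genes (4812 and 8289) and 20 muscle genes (12549 and 20987). They were lower for the lists of cartilage (24035 and 22159), kidney (2545 and 1817), notochord and floor plate (44098 and 42367) and gut and liver (57955 and 33800). Whether the 2 pools differed in developmental progress was not tested.

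At stage 12 the direction in *Chrysemys* was the opposite. Here 47 of 149 genes with counts were called higher at 31 °C and only *Ttr* lower, where 4.9% and 8.12% of all 13725 genes were called. Counting each read pair once left 24 higher and 1 lower, against 273 and 627 of all genes. The median log2 ratio was 0.25, against 0.01 over all genes. All 9 early regulators had higher values at 31 °C, 4 of them called (*Igf2bp1* 1.40, *Arid3b* 0.51, *Dnmt3b* 0.45, *Igf2bp3* 0.37). Higher by the most besides *Igf2bp1* were *Tpm4* (1.36), *Myl7* (1.32), *Fignl2* (0.69), *Hspa8* (0.59), *Fpgs* (0.57), *Mybbp1a* (0.53), *Greb1* (0.53) and *Nucks1* (0.53). Ribosome production contributed 11 of its 24 genes and replication and mitosis 5 of 17. Neuron and muscle lists were close between these libraries (20576 and 20135, and 39693 and 38493), but other tissue lists differed. Higher at 31 °C were notochord and floor plate (21431 and 31765), cartilage (21281 and 27183) and surface epithelium (16219 and 21501). Gut and liver was lower (7036 and 5193). The part of tissue makeup in these calls was not tested. Of the 50 genes called lower at 31 °C at stage 9, 20 (40%) were among the 47 called higher at stage 12 (42.6%). Of all 1428 genes called lower at stage 9, 20.7% were called higher at stage 12. Among the selected genes with counts as a whole, 31.5% were called higher at stage 12.

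**Figure D3:**
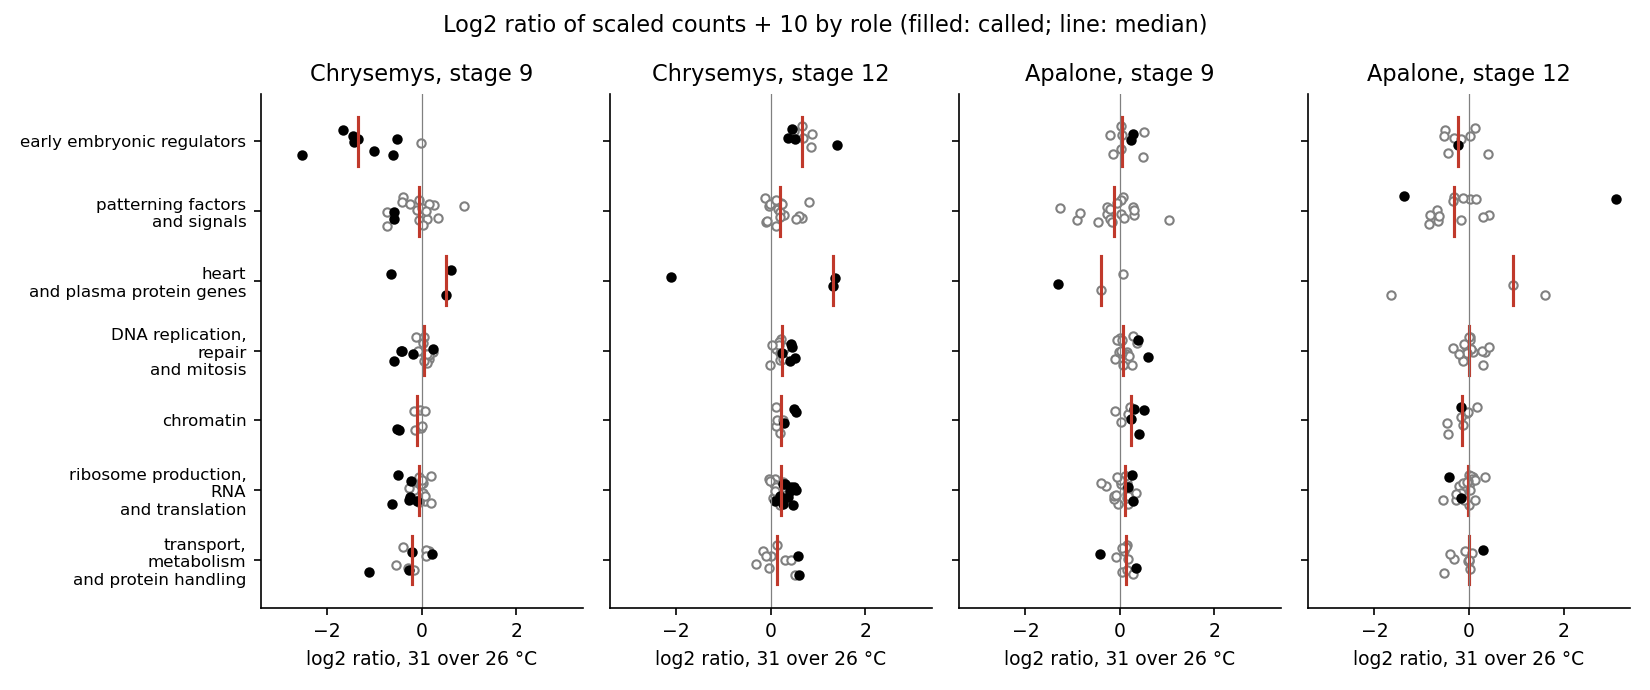
Log2 ratio (31 °C over 26 °C, scaled counts + 10) of each gene by role in the stage 9 and stage 12 libraries of both species. Filled points were called in the Fisher's exact test and red lines are medians. The early embryonic regulators lie left of 0 in *Chrysemys* at stage 9 (median -1.34) and right of it at stage 12 (0.65).

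At stage 15 *Chrysemys* turned again, with 29 of 148 genes called lower at 31 °C and 1 (*Nucks1*) higher, against 9.25% and 8.79% of all 13601 genes. Counting each read pair once left 16 lower and 0 higher, against 721 and 542 of all genes. *Tpm4* (-3.32), *Myl7* (-2.48) and *Ttr* (-2.33) differed by the most, followed by *Rrp12* (-0.89) and *Plk1* (-0.72). None of the early regulators was called in this pair. Tissue lists differed between these libraries too. Cartilage (39778 and 68577) and kidney (5346 and 9322) were higher at 31 °C. Gut and liver (9349 and 4935) and surface epithelium (16654 and 13423) were lower, while muscle was close (60297 and 63130). The part of tissue makeup in the stage 15 calls was not tested. At stage 19, 15 of 148 were called higher and 22 lower (16.3% and 12.3% of all 13753), and at stage 22, 9 and 19 of 146 (13.6% and 9.8% of all 13640). With TMM factors the stage 19 split was 9 to 30, with library totals 5 to 48, and with each read pair counted once 8 to 6, which turns its direction. Over all genes these splits were 1823 to 2276, 1250 to 3286 and 1506 to 937. At stage 22 the split of the selected genes was 9 to 19 with TMM factors, 3 to 49 with library totals and 2 to 12 with each read pair counted once. All genes gave 1900 to 1298, 881 to 3111 and 1202 to 792 there. *Slc7a5* and *Nucks1* were among the selected genes called lower at both of these stages. *Prtg*, by then far below its trunk level, gave 111 and 6.44 at stage 22, whereas *Gdf6*, a BMP family ligand, had a log2 ratio of 1.93, and *Upk1a* gave 10.3 and 139. The 5 measured surface epithelium genes summed to 28224 at 26 °C and 41748 at 31 °C in these gonads, and their part in the *Upk1a* difference was not tested. Other tissue lists differed by more between these gonad libraries. The muscle list summed to 4714 at 26 °C and 45258 at 31 °C at stage 19, and to 5231 and 44700 at stage 22. At stage 22 the somatic gonad list gave 53939 and 10979, and the cartilage list 21892 and 3176. Their part in the calls at both stages was not tested. In all, 43 genes were called higher at one *Chrysemys* stage and lower at another (28.7%, against 18.8% of all 13940 genes with counts), and 50 at none (33.3%, against 49.1%).

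In *Apalone* trunks fewer genes were called, and mostly higher at 31 °C. Fewer reads were also counted there, with total counts of 8127058 at 26 °C and 9088620 at 31 °C. The *Chrysemys* trunk libraries had 17211368 and 24505488. For all libraries together, the study lists more sequenced reads for *Apalone* than for *Chrysemys*, but a lower share mapped to the *Chrysemys* genome. The part of these totals in the number of calls was not tested. In these *Apalone* trunks 15 of 150 genes were called higher at 31 °C and 2 lower, against 2.14% and 2.39% of all 11683 genes. With each read pair counted once, 6 were called higher and 1 lower, against 84 and 131 of all genes. The median log2 ratio was 0.05, against -0.01 over all genes. *Cenpe* (0.59), *Hells* (0.51), *Atad2* (0.40), *Cdk5rap2* (0.38), *Hspa8* (0.34), *Smarca5* (0.30), *Ppig* (0.28) and *Igf2bp3* (0.27) were called higher. The genes called lower were *Ttr*, at a ratio of 0.40 (exact interval 0.37 to 0.44), and *Acat2*, at 0.75 (0.67 to 0.84). Early regulators other than *Igf2bp3* and *Prtg* (0.24) were not called, and their median was 0.05. Values at 31 °C were lower in *Chrysemys* and higher in *Apalone* trunks for 69 of the 150 genes (46%), and lower in both for 36 (24%), against 23.6% and 23.1% of all 11646 genes tested in both. Lower values in *Chrysemys* and higher ones in *Apalone* were each in the majority among the selected genes, so no link between the species is read from the 46%. At this stage no species difference could be tested, with 1 library each.

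At stage 12, 3 of 142 genes were called higher in *Apalone* and 6 lower (3.26% and 2.11% of all 11919). The split was 2 to 7 with TMM factors and 1 to 11 with library totals, but 2 to 1 with each read pair counted once. Over all genes it was 344 to 288, 268 to 401 and 197 to 96 under these settings. *Sp8*, a factor of limb and tail buds, had 218 and 76 raw counts (ratio 0.37, exact interval 0.25 to 0.54). *Pnn* (-0.41), *Igf2bp3* (-0.23), *Ncl* (-0.18) and *Nucks1* (-0.17) were called lower as well. Summed lists of muscle (54935 and 77957), kidney (5403 and 9043) and cartilage (21899 and 28871) were higher at 31 °C in this pair. Gut and liver was lower (2282 and 1526). The part of tissue makeup in these calls was not tested.

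The later AKGs and the first gonads of *Apalone* had more calls. At stage 15, 20 of 137 genes were called higher at 31 °C and 2 lower (3.68% and 4.81% of all 11721), and at stage 19, 31 of 138 higher and 1 lower (4.83% and 6.38% of all 11940). With each read pair counted once, 6 were higher and 1 lower at stage 15 (215 and 270 of all genes). At stage 19, 14 were higher and 1 lower (250 and 440 of all genes). Replication and mitosis led at both, with 8 and 10 of 17 genes called higher and medians of 0.70 and 0.69. *Plk1* gave 627 and 1326 at stage 15 and 715 and 1958 at stage 19, and *Kif20a* 515 and 1043, and 506 and 1000. *Greb1* gave 108 and 558 at stage 19. *Ttr*, the gene called lower at both, fell at least 30.2-fold and 96.2-fold against a floor of 3 counts in the 31 °C library. The summed gut and liver list was higher at 26 °C in both pairs, as given above, and at stage 15 the summed muscle list was 8918 at 26 °C and 31709 at 31 °C. The part of tissue makeup in these differences was not tested. At stage 22, 5 of 136 genes were called in each direction (4.71% and 6.38% of all 11999). The split was 5 to 3 with TMM factors, 6 to 2 with library totals and 2 to 1 with each read pair counted once. Over all genes it was 604 to 702, 629 to 669 and 249 to 375 under these settings. The muscle list summed to 13232 at 26 °C and 317597 at 31 °C in this pair, and its part in the calls was not tested.

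**Figure D4:**
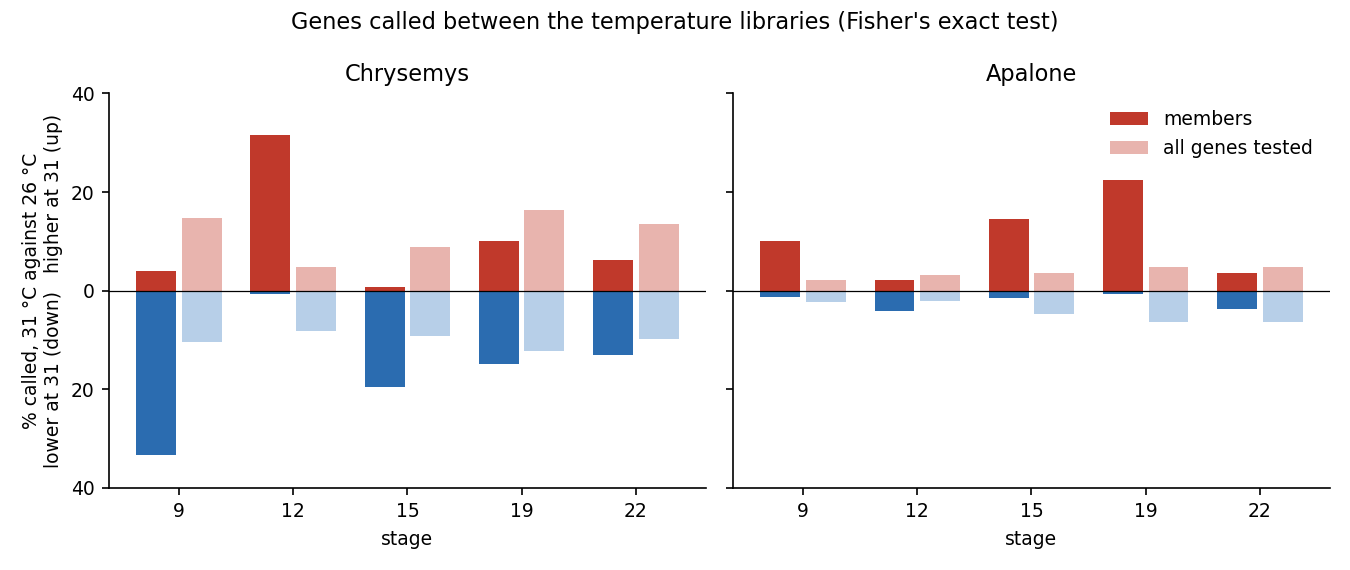
Share of genes called between the 31 °C and 26 °C libraries at each stage in *Chrysemys* (left) and *Apalone* (right). Bars above 0 are genes higher at 31 °C and bars below 0 genes lower. Dark bars are the selected genes (47 of 149 higher at *Chrysemys* stage 12) and pale bars all genes tested (4.9% there).

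Across stages, temperature was tested with stages as blocks in edgeR's quasi-likelihood test, with Benjamini-Hochberg adjustment and a threshold of 0.05. None of 149 genes that passed the low-count filter was called in *Chrysemys* (0.0156% of all 12827). At an unadjusted p under 0.05 there were 7 (4.7%, against 6.31% of all genes), and DESeq2 called 0 (0.374% of all genes). In *Apalone* none of 143 was called (0.0282% of all 10644), with 22 at an unadjusted p under 0.05 (15.4%, against 15.5% of all genes) and 4 called by DESeq2, all higher at 31 °C (2.8%, against 2.37% called either way), so these shares were near those over all genes. The lowest p in *Apalone* belonged to *Igf2bp1*, which was 0.98 ± 0.26 (SE, log2) higher at 31 °C (edgeR adjusted p = 0.217). In *Chrysemys* it belonged to *Slc7a5*, at -0.55 ± 0.21 (edgeR adjusted p = 0.709). Of the selected genes, 6 (4%) were lower at 31 °C at all 5 *Chrysemys* stages and 2 (1.33%) higher, against 2.37% and 4.83% of all genes with counts. In *Apalone* 2 (1.33%) were lower and 19 (12.7%) higher at all 5, against 5.49% and 6.63%. No gene was called for a difference between species in this effect (0 of 149, 0% of all 12110). At an unadjusted p under 0.05 in edgeR there were 7 (4.7%, against 6.11% of all genes), and DESeq2 called 0 (0.14% of all genes).

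Between the AKGs of stages 12 and 15, many of the selected genes were lower at the later stage in *Apalone*. With both temperatures as blocks in edgeR, 44 of 131 genes that passed the filter were lower at stage 15 and none higher, where 7.11% of all 10459 were lower and 8.95% higher. The selection had barred every later library from passing the trunks, which limits rises after stage 12, so nothing is read from the lack of genes called higher here or between AKGs and gonads. The same limit bears on the medians and the counts of negative values, which are given as descriptions. The median log2 fold change was -0.73, against -0.02 over all genes. Replication and mitosis had 14 of 17 genes called, chromatin 5 of 8 and the early regulators 6 of the 8 tested, while ribosome production had 4 of 24. *Greb1* fell by 2.61 ± 0.64 (SE, edgeR adjusted p = 0.036), *Prtg* by 2.25 ± 0.41 (0.0172), *Dnmt3b* by 1.72 ± 0.36 (0.0246) and *Dtl*, an adaptor that targets replication proteins for degradation, by 1.52 ± 0.20 (0.00859). In *Chrysemys* the median was -0.58 and 137 of 143 genes had a negative value. None was called there by edgeR (0% of all 12623), with 43 at an unadjusted p under 0.05 (30.1%, against 7.45% of all genes). DESeq2 called 8 lower (5.59%, against 1.84% called either way). The lowest p was that of *Fignl2*, at -2.25 ± 0.34 (SE, edgeR adjusted p = 0.102). Between the gonads of stages 19 and 22 no selected gene was called in either species. This was 0 of 143 in *Chrysemys* (0% of all genes tested) and 0 of 131 in *Apalone* (0%). At an unadjusted p under 0.05 in edgeR there were 8 (5.59%, against 8.41% of all genes) and 9 (6.87%, against 11.2%). DESeq2 called none of them (0.998% and 1.67% of all genes).

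Gonads of stages 19 and 22 were then compared with the AKGs of stages 12 and 15. In *Chrysemys*, 35 of 143 tested genes were lower in gonads and 2 higher, against 17.6% and 18.7% of all 12623 genes. The median was -0.28, against 0.02. Patterning factors contributed 8 of 14 and the heart and plasma protein genes 3 of 3. *Olig2* had the largest change (-6.86 ± 1.33 SE, edgeR adjusted p = 0.00512). Its scaled counts were 71.4, 88.5, 34.0 and 0 in the AKGs and 0 to 1.23 in the gonads. *Sp8* followed with -4.84 ± 0.40 (edgeR adjusted p = 8e-05), with 224, 258, 133 and 84.0 in AKGs and 4.92 to 6.44 in gonads, so the groups did not overlap. *Tpm4* (-3.94 ± 0.92), *Dlx4* (-3.85 ± 0.64) and *Upk1a*, which encodes a plaque protein of the urinary tract lining (-3.46 ± 0.62), were also lower, at edgeR adjusted p values of 0.00931, 0.00205 and 0.00303. *Mybbp1a*, a nucleolar protein, was higher in gonads (0.84 ± 0.21, edgeR adjusted p = 0.0116), together with XM_005290619 (0.91 ± 0.22).

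In *Apalone*, 10 of 131 tested genes were lower in gonads and none higher, against 2.91% and 5.17% of all 10459. The median was -0.24, against 0.00. Among the called genes with a symbol, the largest changes were those of *Sp8* (-2.68 ± 0.42, edgeR adjusted p = 0.015), *Igf2bp3* (-1.20 ± 0.11, 0.00275), *Arid3b* (-1.17 ± 0.11, 0.00273), *Gli3* (-0.97 ± 0.21, 0.0377) and *Acat2* (-0.88 ± 0.14, 0.017). Some genes that were not called had larger values, such as *Dlx4* (-3.92 ± 1.72). The medians depended on stage 12 in both species. Against the stage 15 AKGs alone, the median was 0.04 in *Chrysemys*, with 12 of 134 genes called, and 0.10 in *Apalone*, with 0 of 126 called by edgeR. Over all genes, 2238 of 12456 and 36 of 10098 were called there. At an unadjusted p under 0.05, *Apalone* had 25 of the 126, and 2099 of all 10098. Against the stage 12 AKGs alone, 48 of 144 and 40 of 131 were called, where 3375 of 12653 and 1804 of 10377 of all genes were.

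**Figure D5:**
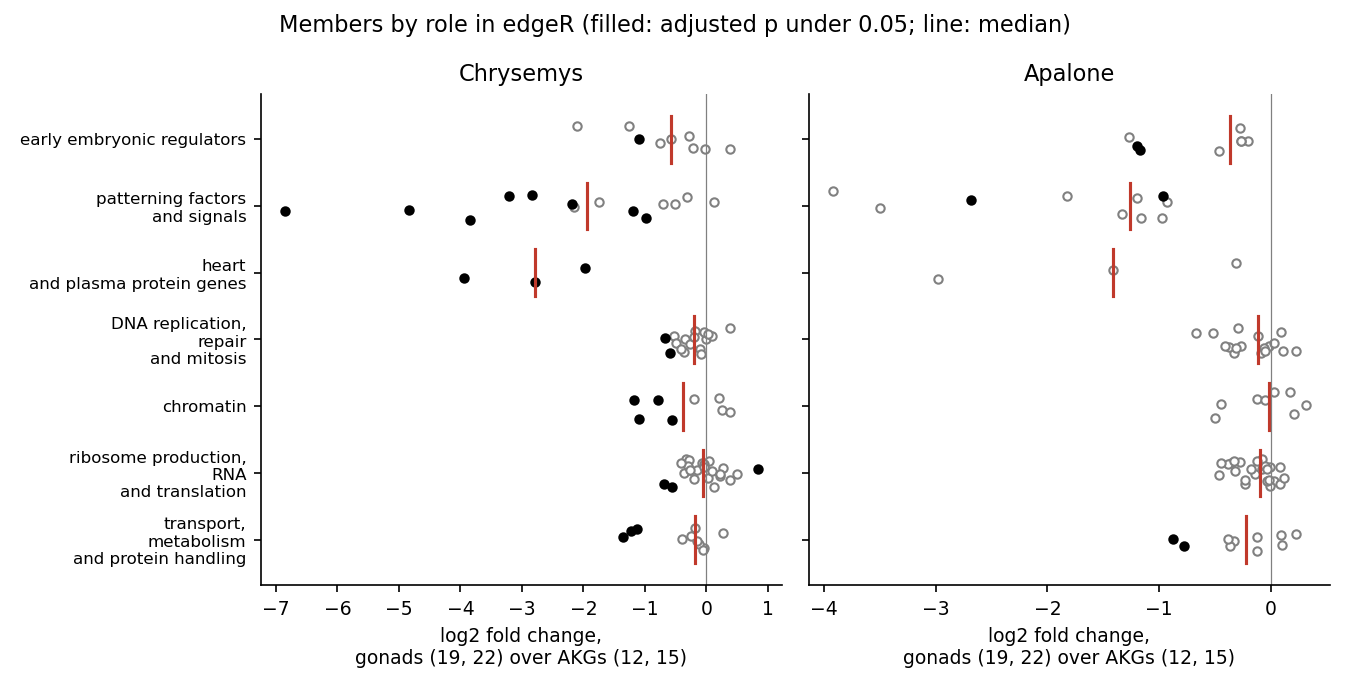
Log2 fold change of gonads (stages 19 and 22) over AKGs (stages 12 and 15) by role in edgeR, in *Chrysemys* (left) and *Apalone* (right), whose horizontal axes differ in range. Filled points had an adjusted p under 0.05 and red lines are medians. Patterning factors lie farthest to the left of the larger roles, with medians of -1.95 and -1.27.

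The change from AKGs to gonads differed between the species for 6 of 142 tested genes, 3 with a higher value in *Apalone* and 3 with a lower one, against 6.07% and 5.8% of all 12050 genes. For *Igf2bp1* the log2 fold change in *Apalone* minus that in *Chrysemys* was -1.73 ± 0.51 (SE, edgeR adjusted p = 0.0464). Its scaled counts in *Chrysemys* were 171, 470, 77.2 and 146 in AKGs and 159 to 311 in gonads, and in *Apalone* 399, 534, 112 and 191 in AKGs and 36.6 to 256 in gonads. *Arid3b* (-1.03 ± 0.24, edgeR adjusted p = 0.0214) and *Mybbp1a* (-0.98 ± 0.26, 0.0306) had the same direction. *Sp8* (2.06 ± 0.62, edgeR adjusted p = 0.0495), *Slc2a12* (1.37 ± 0.39, 0.043) and XM_005299530 (1.05 ± 0.25, 0.0211) had the opposite one. With 1 of the 4 stages left out, 0 to 3 genes were called, and 52 to 1017 over all genes.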

How the data were processed

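Paired-end reads of 100 bp from either turtle were aligned by the authors with GSNAP to the *Chrysemys* genome 3.0.1 and counted per annotated gene with HTSeq. The processing notes of the submitters also name Trimmomatic 0.27. The deposited values are raw read counts per gene, without scaling. Every count was even, so a read pair appears to add 2, and the Fisher tests were repeated with each pair counted once. Symbols came from a RefSeq gene table of another assembly, used for names only, and from the study's tables.

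Counts were scaled by the 75th percentile and analysed in Python 3.11.15 (pandas 2.3.3, scipy 1.17.1) and R 4.3.3. Fisher's exact tests used the scaled library sizes, with Benjamini-Hochberg adjustment over all genes of a species with counts. Quasi-likelihood tests in edgeR 4.0.16 used TMM factors and the default low-count filter, with stage (for temperature) or temperature (for stages) as blocks. Each had few residual degrees of freedom (3 for stages), and a standard error (SE) is the log2 fold change over the square root of the F statistic. DESeq2 1.42.0, other scalings, no filter and leaving out each stage were alternatives. The Fisher test, with library totals, and the edgeR tests of temperature and of gonads against AKGs were checked on counts simulated from *Chrysemys*. The other contrasts and DESeq2 were not checked in this way. Figures used matplotlib 3.10.9.

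The selected genes, roles and lists were chosen with earlier results of these data known. Genes were named by rule: the 30 highest scores with a symbol, the 5 on each side of the limit, genes on a list, per species the 10 largest called ratios at stages 9 and 12, genes called for a species difference, and the 5 highest and 5 lowest called for gonads. *Evx1*, *Wfikkn1*, *Trabd2a*, *Asns*, *Ccnf* and XM_005290619 fall outside this rule and were named after their values were seen. With 1 library per species, stage and temperature, p-values of edgeR rest on the spread over stages or temperatures. Some of the genes this rule gives are not reported here. No sequences are shown.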

Additional observations from a re-analysis of the deposited data

Results flagged for a closer look

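By edgeR's test of the difference, the change from AKGs to gonads differed between the species for 6 of 142 tested genes. This was 4.23%, below the 11.9% of all 12050 genes. The 6 genes, given as Apalone minus Chrysemys on the log2 scale, were *Igf2bp1* (-1.73), *Arid3b* (-1.03), *Mybbp1a* (-0.98), XM_005299530 (1.05), *Slc2a12* (1.37) and *Sp8* (2.06). None of the 6 was called with every one of the 4 stages left out in turn.

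*Slc7a5* was lower at 31 °C at all 5 *Chrysemys* stages (mean log2 ratio -0.52) and higher at all 5 *Apalone* stages. In the test of the species difference over all genes it was not called (edgeR adjusted p = 0.605).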

How the results depend on the processing

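With each read pair counted once, the Fisher calls among the 150 genes fell to 25, 16, 14 and 14 in *Chrysemys* from stage 12 on, and to 7, 3, 7, 15 and 3 at the 5 *Apalone* stages in order. The counts over all genes under this setting are given with each stage above. With library totals in place of the 75th percentile, *Chrysemys* had 97 calls at stage 9, 19 at stage 15 and 52 at stage 22. Of all genes, 1014 were called higher and 2816 lower at stage 9, 1611 and 851 at stage 15, and 881 and 3111 at stage 22. The median of all genes itself moved from 0.04, 0.04 and 0.05 to -0.18, 0.15 and -0.27. The higher values at 31 °C at *Chrysemys* stage 12 and the lower ones at stages 9 and 15 were in the majority under every scaling. DESeq2 called 8 genes for stage 15 against 12 in *Chrysemys* (5.59%, against 1.84% of all genes), and edgeR without the filter 1 (14 of all 13934). For *Apalone* DESeq2 called 4 genes for temperature over stages (2.8%, against 2.37%) and 20 for gonads against AKGs (15.3%, against 14.5%). For the species difference in the latter it called 12 (8.45%, against 19%). Leaving out each stage gave 12 to 48 calls (*Chrysemys*) and 0 to 40 (*Apalone*) for gonads against AKGs, where 2238 to 3926 and 36 to 1804 of all genes were called. It gave 0 to 3 for their species difference (52 to 1017 of all genes), and 0 for temperature. Of the 150 genes, 71 would be among the 150 highest with the 26 °C libraries alone and 86 with those at 31 °C alone, 123 with library totals and 140 to 148 with the other settings. No named gene reversed, while 18 of 179 values under scaling, filter and tool alternatives, and 34 of 67 without 1 stage, lost their call. The temperature tests over stages paired the 2 libraries of each stage through the stage blocks, and the labels give no replicate numbers for another pairing. Low counts limit some genes: 12 had fewer than 20 counts in an *Apalone* trunk library and 2 in a *Chrysemys* one.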
